A study of Mus musculus with 4 samples.

Results

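The 8 genes described here belong to signalling by transforming growth factor β (TGF-β): the ligand gene Tgfb1, the receptor genes Tgfbr1, Tgfbr2 and Tgfbr3, the feedback genes Smad7 and Skil, and the target genes Nox4 and Tgfbi. They were taken by name from a list of TGF-β ligand, receptor, feedback and direct target genes, and all 8 were present among the 17391 genes of the count table. Their RNA was counted by Drop-seq, in which a cell shares a droplet with a barcoded bead, in primary cultures. The cultured cells were Gli1-positive cells of the kidney, and the mice were male and 12 weeks old. Such cells lie around vessels and tubules and are a source of myofibroblasts in kidney fibrosis. All cultures first spent 2 h in medium without serum. The control, labelled 0 h, was harvested at that point without TGF-β, and the other cultures received 1 ng/ml TGF-β for 6, 12 or 24 h. Each time point was 1 library, so no test was possible, and every difference below describes the libraries compared and has no replicate check. Time in TGF-β and time without serum cannot be told apart, since there was no untreated culture at 6, 12 or 24 h. The labels give neither how the Gli1-positive cells were marked nor how many mice they came from. Gli1 itself was looked up and had no entry under that name among the 17391 genes of the count table.

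TGF-β ligands bind the type II receptor TGFBR2, which phosphorylates the type I receptor TGFBR1, and TGFBR1 in turn phosphorylates SMAD2 and SMAD3. These enter the nucleus with SMAD4 and bind short DNA elements near target genes, among which are inhibitors of the pathway itself such as Smad7 and Skil. In kidney fibroblasts and pericytes the pathway is known for driving extracellular matrix production and contractile myofibroblast genes.

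The libraries differed in depth and content. They held 192, 658, 1120 and 1328 barcodes and 106826, 778793, 5687966 and 6166324 counts at 0, 6, 12 and 24 h. Levels are given as CPM, counts scaled to an equal total for every library. For a gene with no count, the limit of 3 counts corresponds to 28.1, 3.85, 0.527 and 0.487 CPM at 0, 6, 12 and 24 h. Ranges in parentheses are exact 95% intervals, Poisson for a level and conditional binomial for a ratio, and cover counting error only. Whether copies of a molecule were collapsed is not stated, so counts may not be independent molecules. No barcode was shared between libraries, and 0, 18, 257 and 277 barcodes lay 1 base from another of their own library. In the library labelled 0 h the markers went against the label: 10 proximal tubule markers summed to 15530 CPM there and to 1.41 to 2.59 CPM in the treated libraries. Its 9 measured mesenchymal markers summed to 56.2 CPM, 5 of them without a count, against 6333, 9696 and 10301 CPM at 6, 12 and 24 h. The treated libraries are therefore compared with each other first, and values from the library labelled 0 h are set beside them at the end.

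Sequences before RefSeq transcription starts of the receptor and target genes on which the results turn are shown here, because SMAD proteins bind the short element CAGAC. Each run is read 5′ to 3′ on the gene's strand, lies before a transcription start annotated by RefSeq in GRCm38.p6 (the mm10 build), and has CAGAC, or its reverse complement GTCTG, in capitals. RefSeq windows were available for 5 of the 8 genes, namely Tgfb1, Tgfbr1, Tgfbr2, Nox4 and Tgfbi. Bases that GENCODE M21 places in an exon were left out, which shortened the Tgfbi run to 187 bases, while the others have 250. The Nox4 run lies within the gene as GENCODE M21 bounds it: it is downstream of the earliest GENCODE start, outside exons, and before the RefSeq start.
Tgfbr1 (chr4:47352972-47353221, + strand): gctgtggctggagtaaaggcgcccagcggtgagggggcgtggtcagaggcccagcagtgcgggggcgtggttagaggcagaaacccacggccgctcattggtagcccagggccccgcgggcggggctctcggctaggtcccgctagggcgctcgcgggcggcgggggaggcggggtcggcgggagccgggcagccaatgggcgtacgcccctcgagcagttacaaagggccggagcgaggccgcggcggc
Tgfbr2 (chr9:116175364-116175613, - strand): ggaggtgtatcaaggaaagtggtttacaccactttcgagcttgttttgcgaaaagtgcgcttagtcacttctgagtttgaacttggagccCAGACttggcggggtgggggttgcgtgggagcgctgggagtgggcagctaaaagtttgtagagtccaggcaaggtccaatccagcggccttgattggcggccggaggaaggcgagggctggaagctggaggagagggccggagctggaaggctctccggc
Nox4 (chr7:87246399-87246648, + strand): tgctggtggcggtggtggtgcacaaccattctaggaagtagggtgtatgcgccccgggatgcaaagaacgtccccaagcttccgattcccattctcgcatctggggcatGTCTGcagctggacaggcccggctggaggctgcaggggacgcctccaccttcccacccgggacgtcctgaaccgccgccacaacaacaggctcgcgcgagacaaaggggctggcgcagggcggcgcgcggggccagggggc
Tgfbi (chr13:56609336-56609522, + strand): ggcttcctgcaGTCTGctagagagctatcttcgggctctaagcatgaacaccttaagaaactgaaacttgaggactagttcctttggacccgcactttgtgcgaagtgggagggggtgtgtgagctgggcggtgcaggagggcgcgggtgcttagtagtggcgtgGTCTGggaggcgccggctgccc

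The element occurred 1 time before Tgfbr2, starting 160 bases before the transcription start, and 1 time before Nox4, 141 bases before it. Tgfbi had it 2 times, at 239 and 85 bases before the start. The Tgfbr1 window shown had no match, although a window before a second annotated Tgfbr1 start had 1, and the Tgfb1 window had none. CAGAC on either strand is a common word: it was present in 42.2% of 32851 RefSeq windows of 250 bases. None of the 5 genes' windows held the palindromic SMAD element GTCTAGAC, found in 0.167% of all windows, or the AP-1 motif TGANTCA, found in 6.75%. Neither of these motifs can contain CAGAC or GTCTG. These matches describe the letters only.

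**Figure D1:**
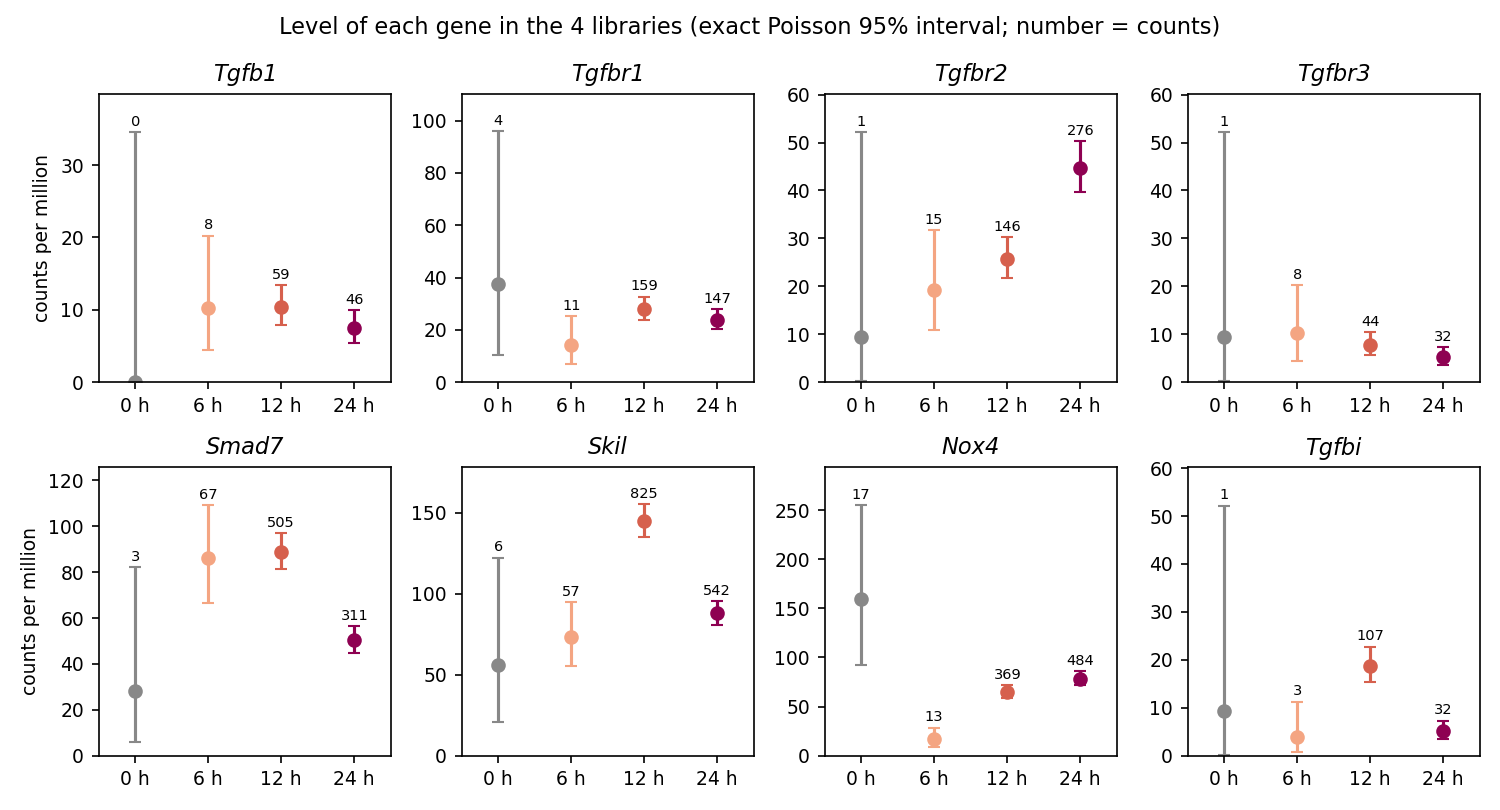
Level of each of the 8 genes in the 4 libraries, in CPM, with the exact Poisson 95% interval as bars and the number of counts above each bar. Among the treated libraries, Tgfbr2 was highest at 24 h (44.8 CPM), and Skil and Tgfbi at 12 h (145 and 18.8 CPM). The library labelled 0 h has the widest intervals because it holds 106826 counts.

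Tgfb1, which encodes the ligand TGF-β1 itself and lies on chromosome 7 (GRCm38, 25687002 to 25705077, + strand), was a low transcript throughout. It had 0, 8, 59 and 46 counts at 0, 6, 12 and 24 h, which in the treated libraries at 6, 12 and 24 h is 10.3 (4.43 to 20.2), 10.4 (7.90 to 13.4) and 7.46 CPM (5.46 to 9.95). The 0 counts at 0 h allow up to 28.1 CPM, which is above every treated level. The level at 12 h was 1.01 times that at 6 h (0.480 to 2.45), and the level at 24 h was 0.719 times that at 12 h (0.478 to 1.08). No pair of treated libraries differed beyond counting error, so no order of the 3 levels could be read.

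Tgfbr2 was highest at 24 h among the treated libraries, while the intervals of the Tgfbr1 levels there overlapped. Tgfbr2, the type II receptor that binds the ligand (chromosome 9, 116084293 to 116175360, - strand), had 1, 15, 146 and 276 counts at 0, 6, 12 and 24 h. At 6, 12 and 24 h its level was 19.3 (10.8 to 31.8), 25.7 (21.7 to 30.2) and 44.8 CPM (39.6 to 50.4). The 24 h library stood above both others, and the intervals of 12 and 6 h overlapped. The ratio was 1.74 at 24 h against 12 h (1.42 to 2.15), 2.32 at 24 h against 6 h (1.38 to 4.21) and 1.33 at 12 h against 6 h (0.782 to 2.44).

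Tgfbr1, the type I receptor kinase (chromosome 4, 47353222 to 47414931, + strand), had 4, 11, 159 and 147 counts at the same times. The levels at 6, 12 and 24 h were 14.1 (7.05 to 25.3), 28.0 (23.8 to 32.7) and 23.8 CPM (20.1 to 28.0). The 6 h level rests on 11 counts, and its interval overlapped those of 12 and 24 h, which overlapped each other. The ratio of 12 h to 6 h was 1.98 (1.08 to 4.05), that of 24 h to 12 h was 0.853 (0.677 to 1.07) and that of 24 h to 6 h was 1.69 (0.916 to 3.46). In the barcodes with 1000 or more counts alone, the ratio of 12 h to 6 h was 1.79 with an interval that holds 1 (0.917 to 3.98).

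Set against each other inside each library, which removes the library's total, Tgfbr2 had 1.36 counts per Tgfbr1 count at 6 h (0.585 to 3.28), 0.918 at 12 h (0.728 to 1.16) and 1.88 at 24 h (1.53 to 2.31). The intervals of 24 and 12 h did not overlap, while the 6 h interval overlapped both. This pair, and the feedback pair below, were chosen after their values were seen. The ratio does not compare the level of the 2 receptors, since capture can differ between transcripts.

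Tgfbr3, the co-receptor betaglycan, which presents ligand to TGFBR2 (chromosome 5, 107106570 to 107289629, - strand), had 1, 8, 44 and 32 counts at 0, 6, 12 and 24 h. From 6 through 12 to 24 h it stood at 10.3 (4.43 to 20.2), 7.74 (5.62 to 10.4) and 5.19 CPM (3.55 to 7.33). All 3 ratios between treated libraries had intervals that hold 1, at 0.753 for 12 h against 6 h (0.351 to 1.85), 0.671 for 24 h against 12 h (0.412 to 1.08) and 0.505 for 24 h against 6 h (0.228 to 1.27). Its exons overlap those of Gm43422 on the same strand, so reads of the 2 could not be told apart.

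The feedback genes were both lower at 24 h than at 12 h, but stood differently at 6 h. Smad7, on chromosome 18, encodes an inhibitory SMAD that blocks and helps degrade the activated type I receptor, and had 3, 67, 505 and 311 counts at 0, 6, 12 and 24 h. Its levels were, at 6, 12 and 24 h, 86.0 (66.7 to 109), 88.8 (81.2 to 96.9) and 50.4 CPM (45.0 to 56.4). The 24 h library was apart from the other 2 treated libraries, which overlapped. Smad7 was 1.76-fold lower at 24 h than at 12 h (1.53 to 2.03) and 1.71-fold lower than at 6 h (1.29 to 2.23), with a ratio of 1.03 at 12 h against 6 h (0.799 to 1.35).

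Skil encodes SnoN, a nuclear repressor that binds SMAD complexes (chromosome 3, 31095058 to 31122577, + strand). It had 6, 57, 825 and 542 counts at 0, 6, 12 and 24 h. Over 6, 12 and 24 h the levels were 73.2 (55.4 to 94.8), 145 (135 to 155) and 87.9 CPM (80.7 to 95.6). The 12 h library stood above the other 2, whose intervals overlapped. Skil was 1.98-fold higher at 12 h than at 6 h (1.51 to 2.64) and 1.65-fold lower at 24 h than at 12 h (1.48 to 1.84), and its ratio at 24 h against 6 h was 1.20 (0.913 to 1.61).

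Smad7 per Skil count was 1.18 at 6 h (0.813 to 1.70), 0.612 at 12 h (0.547 to 0.685) and 0.574 at 24 h (0.498 to 0.661). The 6 h interval lay above both later ones, which overlapped each other.

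Of the target genes in the treated libraries, Nox4 was higher in both later libraries than at 6 h, and Tgfbi was highest at 12 h. Nox4, an NADPH oxidase that makes hydrogen peroxide and takes part in myofibroblast differentiation (chromosome 7, 87246096 to 87398710, + strand), had 17, 13, 369 and 484 counts at 0, 6, 12 and 24 h. At 6, 12 and 24 h this came to 16.7 (8.89 to 28.5), 64.9 (58.4 to 71.8) and 78.5 CPM (71.7 to 85.8). The order was 24 h, 12 h, 6 h, and the ratio of each neighbouring pair differed from 1 beyond counting error. Nox4 was 3.89-fold higher at 12 h than at 6 h (2.24 to 7.37), 1.21-fold higher at 24 h than at 12 h (1.05 to 1.39) and 4.70-fold higher at 24 h than at 6 h (2.72 to 8.90). Its 3′ end shares stretches of 51 bases with Olfr1116, so reads there could have come from either gene.

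Tgfbi encodes a secreted matrix protein that binds integrins and was first found as a TGF-β induced gene (chromosome 13, 56609523 to 56639562, + strand). It had 1, 3, 107 and 32 counts at 0, 6, 12 and 24 h, which in the treated libraries at 6, 12 and 24 h is 3.85 (0.794 to 11.3), 18.8 (15.4 to 22.7) and 5.19 CPM (3.55 to 7.33). The 12 h library stood above the other 2, which overlapped. Tgfbi was 4.88-fold higher at 12 h than at 6 h (1.63 to 24.1), a ratio resting on 3 counts at 6 h, and 3.62-fold lower at 24 h than at 12 h (2.42 to 5.56). Between 24 and 6 h the ratio was 1.35 (0.421 to 6.88).

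**Figure D2:**
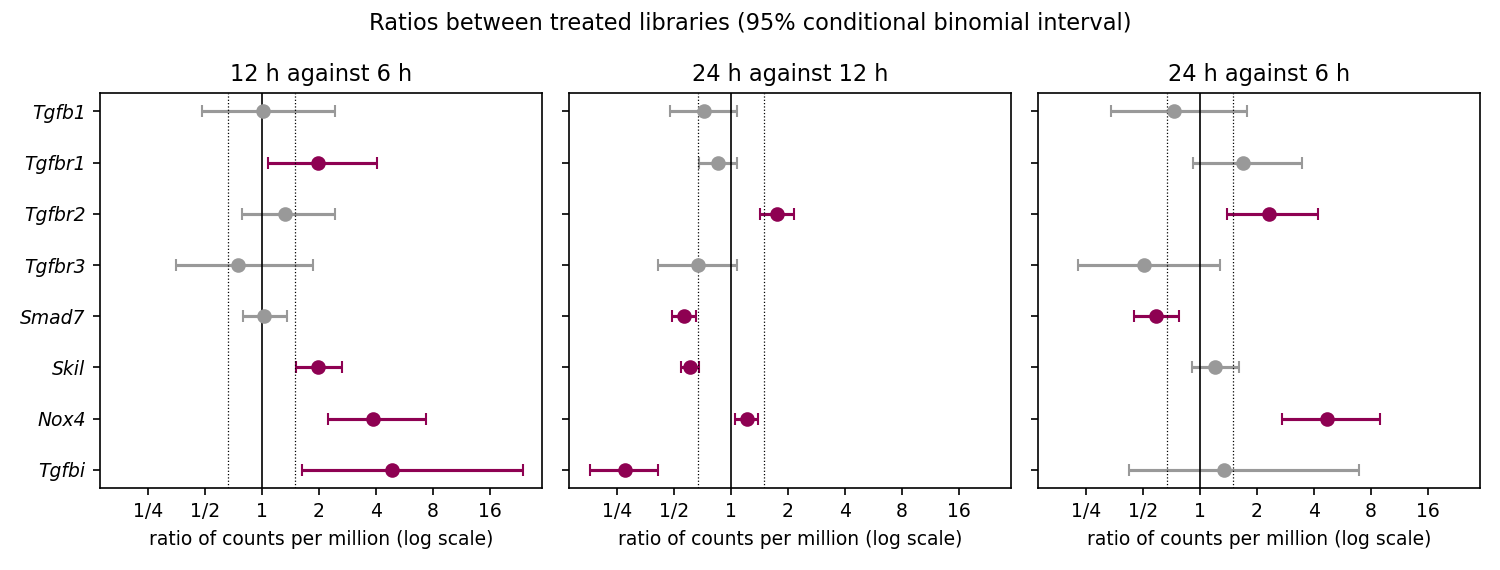
Ratio of CPM between treated libraries for the 8 genes, on a log scale, with the conditional binomial 95% interval; dark red marks intervals without 1 and dotted lines the 1.5-fold limit. Tgfbr2 was 1.74-fold higher at 24 h than at 12 h, where Smad7, Skil and Tgfbi were lower, and Nox4 and Tgfbi had the highest ratios at 12 h against 6 h.

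These genes, chosen with earlier results of these data known, were then read against the whole transcriptome as a description. A gene was counted as higher or lower where log2(CPM + 10) differed by 1.5-fold or more, which understates the difference of low genes, and only genes with a mean of 20 CPM or more over the 3 treated libraries were counted. Of the 8 genes, 5 reached that level (Tgfbr1, Tgfbr2, Smad7, Skil and Nox4), and Tgfb1, Tgfbr3 and Tgfbi did not. At 12 h against 6 h, 3 of the 5 were higher (Tgfbr1, Skil and Nox4, with log2 ratios of 0.65, 0.90 and 1.49), where 17.6% of 6382 genes were higher, and 0 were lower, where 6.78% of genes were. At 24 h against 12 h, 1 was higher (Tgfbr2, 0.62), against 2.32% of genes, and 2 were lower (Smad7, -0.71, and Skil, -0.66), against 3.90% of genes. At 24 h against 6 h, 2 were higher (Tgfbr2, 0.90, and Nox4, 1.73), against 13.9% of genes, and 1 was lower (Smad7, -0.67), against 8.34% of genes. The median log2 ratio of the 5 was 0.65, -0.17 and 0.49 in these comparisons, beside 0.16, -0.11 and 0.05 over all 6382 genes. With counts scaled by TMM factors the all-gene median was 0.06 at 12 h against 6 h and -0.01 at 24 h against 12 h, and Tgfbr1 (0.57 at 12 h against 6 h) and Skil (-0.55 at 24 h against 12 h) no longer passed 1.5-fold. Smad7 fell short at 24 h against 12 h (-0.54) and against 6 h (-0.45) when every barcode had equal weight. With that weighting Tgfbr2 passed 1.5-fold at 12 h against 6 h (0.81) and Tgfbr1 at 24 h against 6 h, with 0.83 in place of 0.49.

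Transcripts of dividing cells moved with time as well. The 10 G2 and M phase markers summed to 1541, 434 and 77.4 CPM at 6, 12 and 24 h, all 10 with counts in each library. Acta2, the smooth muscle actin of myofibroblasts, was at 603, 112 and 404 CPM at 6, 12 and 24 h. The part of either in the differences above was not tested between libraries, and their relation to the 8 genes among barcodes is given further on. Tubule, endothelial, macrophage and podocyte markers each summed to 7.70 CPM or less in every treated library.

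Other genes of the TGF-β pathway, also listed with earlier results of these data known, were read in the same way. Of 78 listed, 73 were in the table and 51 reached a mean of 20 CPM over the treated libraries. At 12 h against 6 h, 15 of the 51 were higher and 1 was lower, beside 17.6% and 6.78% of all 6382 genes. Only 1 was higher and 5 were lower at 24 h against 12 h, beside 2.32% and 3.90% of all genes. The 24 h library against that at 6 h had 11 higher and 3 lower, beside 13.9% and 8.34% of all genes. Their median log2 ratio in these comparisons was 0.26, -0.18 and 0.18, beside 0.16, -0.11 and 0.05 over all genes. The counts of higher genes depended on the scaling: with DESeq2 size factors 10 were higher at 12 h against 6 h and 7 at 24 h against 6 h, and with equal weight per barcode, where 49 genes reached 20 CPM, 23 and 18 were.

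Among ligands and their activators, 6 of 10 genes were higher at 12 h than at 6 h, beside 17.6% of all genes, and 0 were lower, beside 6.78%. None of these 6 encodes a ligand. The ligand genes among the 10 had log2 ratios between -0.53 and 0.26 at 12 h against 6 h, within the limit. Ltbp2, a microfibril-associated member of the latent TGF-β binding protein family, was at 120 CPM at 12 h, against 15.4 CPM at 6 h, a ratio of 7.76 (4.41 to 15.1). Ltbp3, which binds the latent ligand and directs it to the matrix, was at 182 CPM at 12 h, against 28.2 CPM at 6 h, 6.45-fold higher (4.24 to 10.3). Lrrc32, which holds latent TGF-β at the cell surface, was 3.61-fold higher (2.29 to 6.05), and Thbs1, thrombospondin 1, which activates latent TGF-β, 2.85-fold higher (2.48 to 3.28). At 24 h against 12 h none of the 10 was higher or lower, and these 4 genes had ratios of 7.09, 6.41, 3.94 and 3.25 at 24 h against 6 h. The 1 ligand gene lower at 24 h than at 6 h was Gdf11, a ligand of activin receptors (1.98-fold, 1.20 to 3.15), named after its value was seen. The ligand gene Tgfb1, at 1.01 times its 6 h level at 12 h, lay below the 20 CPM needed to be counted among them.

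Among receptors and co-receptors, 1 of 6 was higher at 12 h than at 6 h, beside 17.6% of all genes, namely Eng, the co-receptor endoglin, at 37.3 CPM at 12 h against 19.3 CPM at 6 h, a ratio of 1.94 (1.15 to 3.52). At 24 h against 12 h, 1 was lower, beside 3.90% of all genes: Cd109, a membrane protein that binds TGF-β and dampens its signal, at 124 CPM at 24 h against 212 CPM at 12 h, 1.71-fold lower (1.56 to 1.88). None of these 6 was higher at 24 h than at 12 h, where Tgfbr2 was.

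Of 8 Smads and their partners, 1 was higher at 12 h than at 6 h, beside 17.6% of all genes, the SMAD corepressor gene Tgif1 (1.73-fold, 1.15 to 2.72), and none was higher or lower at 24 h than at 12 h. Smad2, a receptor-activated SMAD, was 1.88-fold lower at 24 h than at 6 h (1.27 to 2.71).

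Of 11 other inhibitors and feedback genes, 1 was higher at 12 h than at 6 h, beside 17.6% of all genes, and at 24 h against 12 h 1 was higher and 1 was lower, beside 2.32% and 3.90%. Pmepa1, which keeps receptor-activated SMADs from the receptor, was 1.69-fold higher at 12 h than at 6 h (1.52 to 1.88). At 24 h against 12 h, Smurf2, a ubiquitin ligase that SMAD7 brings to the receptor, was 1.75-fold lower (1.59 to 1.93), at 112 CPM at 24 h against 197 CPM at 12 h. Fst, follistatin, which binds activins, was 1.63-fold higher (1.39 to 1.91). Smad7, Skil and Smurf2 were lower at 24 h than at 12 h, and 9 of the 11 inhibitors that reached 20 CPM did not pass 1.5-fold on the log2(CPM + 10) scale. Among these 9, Fstl3, a follistatin-like inhibitor of activins, lay near the limit and was 1.51-fold lower in plain CPM (1.33 to 1.72); it was named after its value was seen.

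Of 16 other target genes, 6 were higher and 1 was lower at 12 h than at 6 h, beside 17.6% and 6.78% of all genes. Wisp1, a matricellular growth factor, was 4.21-fold higher (2.99 to 6.11), the integrin subunit gene Itgb5 3.95-fold (3.14 to 5.04), Spsb1, a receptor-binding adaptor of a ubiquitin ligase, 3.90-fold (2.09 to 8.23) and the AP-1 gene Junb 3.62-fold (2.48 to 5.48).

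The targets took different courses. At 24 h against 12 h, 0 of the 16 were higher and 3 were lower, beside 2.32% and 3.90% of all genes. Among these 3, Junb and Spsb1 were lower by 3.10-fold (2.69 to 3.58) and 2.05-fold (1.67 to 2.51), in the direction of Tgfbi and Skil. Wisp1 and Itgb5 had log2 ratios of -0.09 and -0.04 at 24 h against 12 h and stood, at 24 h, 3.95-fold (2.81 to 5.73) and 3.85-fold (3.06 to 4.92) above 6 h, and the cell cycle inhibitor gene Cdkn2b was 2.52-fold higher at 24 h than at 6 h (2.08 to 3.08), in the direction of Nox4. Of the 16 targets, 6 were higher and 1 was lower at 24 h against 6 h, beside 13.9% and 8.34% of all genes. That 1 target, not named here, was lower in each of these comparisons.

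**Figure D3:**
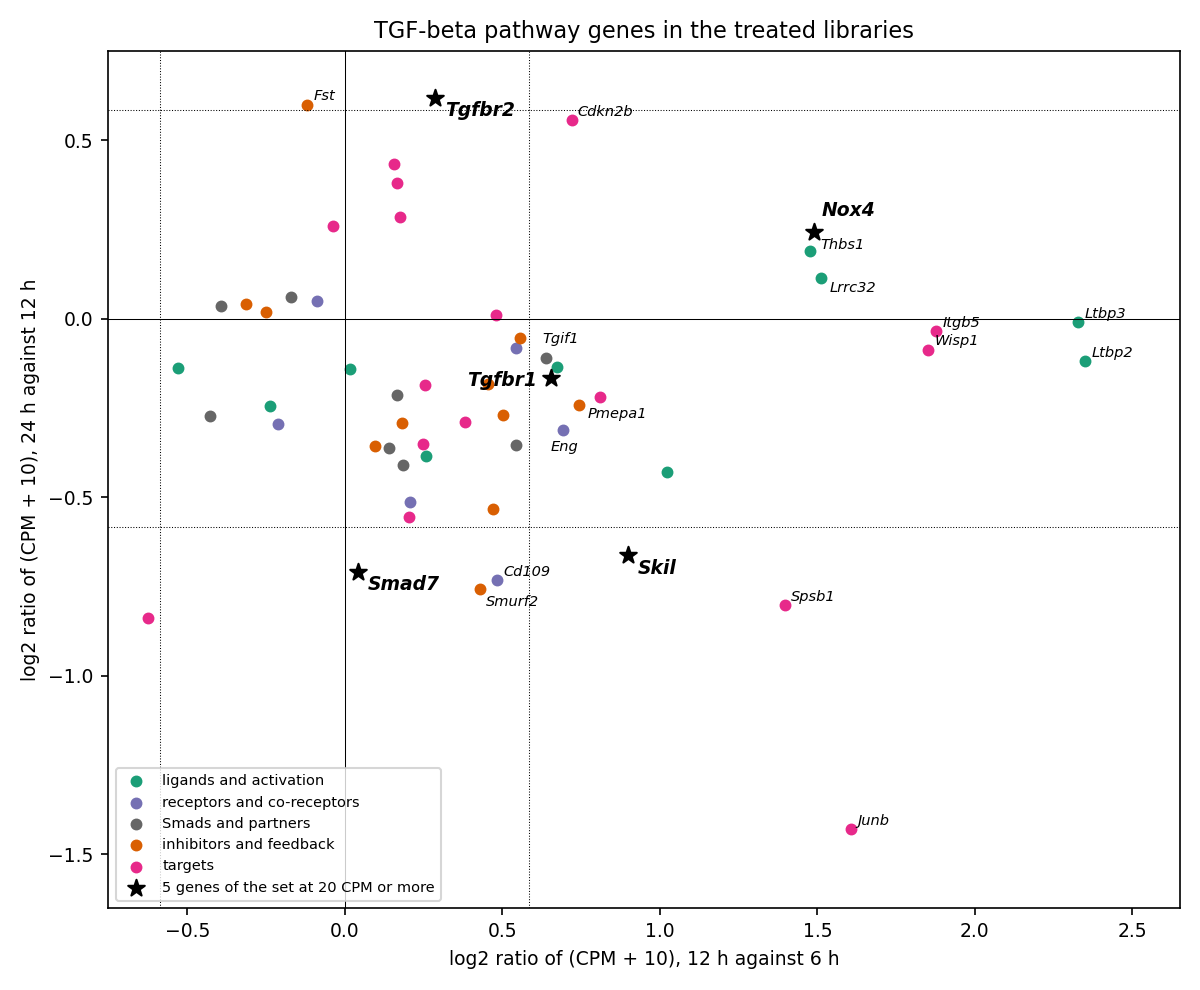
Log2 ratio at 24 h against 12 h (vertical) over that at 12 h against 6 h (horizontal), both of CPM plus 10, for 51 pathway genes coloured by role and 5 genes of the set as stars; dotted lines mark 1.5-fold. Nox4 lies at the right with Thbs1 and Lrrc32, and Tgfbr2 at the top. Skil, like Spsb1, has a positive horizontal and a negative vertical value, and Smad7 lies below the lower dotted line at a horizontal value of 0.04.

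Genes of the whole table with the most similar course are named by the smallest distance between their pair of log2 ratios (12 h against 6 h, and 24 h against 12 h) and those of each gene, among 1820 genes with a mean of 100 CPM or more. The measure rests on 3 libraries and is a description only. Its distances are smaller than counting error. At 12 h against 6 h the log2 ratio had an interval of 0.94 to 2.00 for Nox4 and of -0.26 to 0.81 for Tgfbr2. The genes named are therefore not resolved from others with a close course. Nearest to Nox4 were Thbs1, Col1a2, a chain of type I collagen, and Loxl2, a collagen cross-linking enzyme, at distances of 0.054, 0.098 and 0.12 log2 units. Nearest to Tgfbr2 were Amotl2, Dpysl3 and Cyp1b1 at 0.061, 0.064 and 0.087. Nearest to Skil were Hbegf, an epidermal growth factor receptor ligand, Wwp2, a ubiquitin ligase, and Flrt2 at 0.036, 0.056 and 0.086. Smad7 had Hnrnpu, Prkg2 and Rasa1 at 0.053, 0.054 and 0.079, and the genes near Tgfbr1 included Slc6a6 and Polr2e at 0.026 and 0.028.

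The counts were spread over many barcodes. Among the 865 barcodes with 1000 or more counts at 12 h and the 933 at 24 h, whose median depths were 5231 and 5237 counts, Tgfbr2 was counted in 214 at 24 h (22.9%), against 125 at 12 h (14.5%). Nox4 was counted in 324 at 24 h (34.7%), against 241 at 12 h (27.9%). Skil was counted in 357 at 24 h (38.3%), against 440 at 12 h (50.9%), and Smad7 in 217 at 24 h (23.3%), against 321 at 12 h (37.1%). Each share moved as the summed level of its gene did. No barcode held more than 10 counts of any of the 8 genes. Of the 80 such barcodes at 6 h, with a median of 3476.5 counts, 28 held Smad7, 22 held Skil, 11 held Tgfbr2 and 9 held Nox4.

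Thinning each barcode to 500 counts, which left out 101, 524, 158 and 325 shallower barcodes at 0, 6, 12 and 24 h, put all shares on 1 depth. Smad7 was then counted in 1.69% of barcodes at 24 h (exact binomial 95% interval 0.990 to 2.70), against 3.74% at 12 h (2.63 to 5.14). Skil was counted in 5.28% at 24 h (3.98 to 6.86), against 7.28% at 12 h (5.72 to 9.10), and Tgfbr2 in 2.19% at 24 h (1.38 to 3.30), against 1.56% at 12 h (0.875 to 2.56). The intervals of the libraries overlapped for all 3 genes. Nox4 stood at 3.09% at 24 h and 3.64% at 12 h, against the direction of its summed level, so no order was read. Thinned to 1000 counts instead, Smad7 was counted in 3.86% at 24 h (2.72 to 5.30), against 7.51% at 12 h (5.85 to 9.48), and Skil in 7.40% at 24 h (5.80 to 9.27), against 13.8% at 12 h (11.5 to 16.2). At that depth the intervals of Smad7 and of Skil did not overlap, while those of Tgfbr2 (4.50% at 24 h, 3.26 to 6.04, against 2.54% at 12 h, 1.60 to 3.83) and of Nox4 (7.18% at 24 h, 5.61 to 9.03, against 5.78% at 12 h, 4.32 to 7.55) did. At 6 h the thinned shares rested on 4 barcodes or fewer per gene. Barcodes were not assigned to cell types, so no share in a type that should lack these genes is given. The 10 proximal tubule markers had 2, 8 and 16 counts in all at 6, 12 and 24 h, Slc34a1 and Kap among them 0.

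Levels were also compared between kinds of barcode within a library. At 24 h, the 25% of barcodes with the highest Acta2 per count (233 barcodes, 1296 CPM of Acta2) were set against the other 700 (91.0 CPM). Nox4 was at 74.7 CPM in the Acta2-high barcodes and 78.9 CPM in the others, a ratio of 0.948 (0.762 to 1.17). Tgfbr2 was at 50.0 CPM in the Acta2-high barcodes and 43.9 CPM in the others, 1.14 times (0.865 to 1.49), and Skil was at 77.3 CPM in the Acta2-high barcodes and 91.5 CPM in the others, 0.845 times (0.684 to 1.04). All 8 intervals held 1, so none of the genes differed by Acta2 beyond counting error at this depth.

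The 10% of barcodes with the most G2 and M phase counts per count were likewise set against the rest in each treated library. This is a fixed share of each library, and no barcode was called dividing from it. Those markers summed to 3853 CPM in it and 95.1 CPM in the rest at 12 h, and to 680 CPM in it and 21.8 CPM in the rest at 24 h, while the rest at 6 h had 969 CPM. At 12 h, Nox4 was 1.73-fold lower in these marker-high barcodes (1.09 to 2.91), at 38.3 CPM in 86 barcodes against 66.3 CPM in the other 779. At 24 h, Tgfbi was 4.47-fold higher in them (1.81 to 10.1), at 17.8 CPM in 93 barcodes against 3.99 CPM in the other 840, a comparison of 9 counts with 22. For Nox4 at 24 h the levels were 91.2 CPM in the marker-high barcodes and 76.5 CPM in the others, with intervals that overlapped. Of the 32 intervals computed over the 4 splits of treated libraries, these 2 were the ones without 1, and barcodes of 1 library are not replicates.

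**Figure D4:**
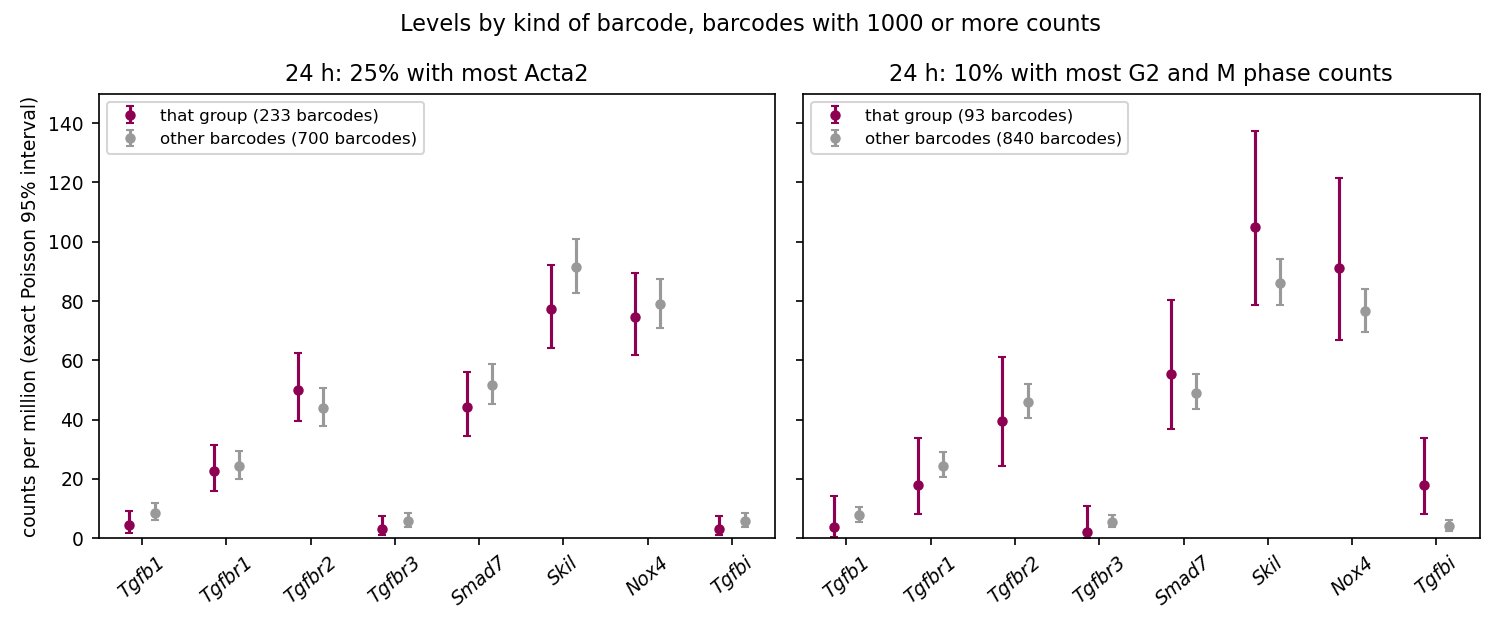
Level of the 8 genes at 24 h in CPM with exact Poisson 95% intervals, in barcodes with 1000 or more counts. On the left the 25% with most Acta2 (dark red) is beside the other barcodes (grey), and on the right the 10% with most G2 and M phase counts; Tgfbi at 17.8 against 3.99 CPM on the right is the gene whose intervals do not overlap.

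Values against the library labelled 0 h are given side by side only, because its barcodes carried tubule RNA. A proximal tubule marker was counted in 189 of its 192 barcodes, and these held every count of the 8 genes. The other 3 held 1749 of its 106826 counts, too few to show where the 8 genes were expressed. Malat1 alone was at 321523 CPM at 0 h, against 9474, 11266 and 12364 CPM at 6, 12 and 24 h. Such a share lowers the CPM of every other gene at 0 h, and its part in the ratios was not tested. Nox4 had 17 counts at 0 h, in 16 barcodes, or 159 CPM (92.7 to 255). It was 9.53-fold lower at 6 h than at 0 h (4.36 to 21.3), 2.45-fold lower at 12 h (1.41 to 3.98) and 2.03-fold lower at 24 h (1.17 to 3.28). Nox4 is expressed in proximal tubule cells, where it was first described as a renal oxidase. Smad7, with 3 counts at 0 h (28.1 CPM, 5.79 to 82.1), had ratios of 3.06 at 6 h (1.00 to 15.2), 3.16 at 12 h (1.08 to 15.4) and 1.80 at 24 h (0.609 to 8.76). Skil, with 6 counts at 0 h (56.2 CPM, 20.6 to 122), had ratios of 1.30 at 6 h (0.563 to 3.70), 2.58 at 12 h (1.18 to 7.06) and 1.56 at 24 h (0.714 to 4.28). Tgfbr1 at 37.4 CPM (10.2 to 95.9), and Tgfbr2, Tgfbr3 and Tgfbi at 9.36 CPM each (0.237 to 52.2), did not differ from any treated library beyond counting error.

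By the 1.5-fold rule, with the mean of 20 CPM taken over all 4 libraries, the same 5 genes were counted against the library labelled 0 h. At 6 h, 2 were higher (Tgfbr2 and Smad7) and 2 were lower (Tgfbr1 and Nox4), where 49.6% of 6910 genes were higher and 28.8% were lower. At 12 h, 3 were higher (Tgfbr2, Smad7 and Skil) and 1 was lower (Nox4), beside 52.5% and 25.8% of genes. At 24 h, 2 were higher (Tgfbr2 and Smad7) and 1 was lower (Nox4), beside 50.0% and 27.9% of genes. Of these, Tgfbr2 at every time, Tgfbr1 at 6 h and Smad7 at 24 h had ratio intervals that hold 1. Most of the 6910 genes that reached 20 CPM passed the limit against that library, and the counts of the 5 are to be read beside those shares.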

How the data were processed

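The 4 Drop-seq libraries, 1 per time point, come in a single table. The values the authors deposited are raw counts, whole numbers for every gene in every barcode, and each column name carries the library. The submitters' processing notes name STAR 2.5.3a and mm10. Not given in the sources used here are the counter, its annotation and strand setting, and whether molecular identifiers were collapsed.

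Every one of the 3298 barcodes was kept. Doublets were not called, and no barcodes were merged. The counts of each library were added up and expressed as CPM. Intervals are exact at 95%. Log2 ratios use a pseudocount of 10 CPM, a limit of 1.5-fold and a floor of 20 CPM. Named are the 8 genes, up to 4 pathway genes past the limit per role and comparison, and the 3 nearest genes by course. Some genes that this rule names are not reported here. Members and lists were chosen with earlier results of these data known. The method was tested on simulated counts. Alternatives were pseudocounts of 1 and 50, a 2-fold limit, a floor of 50 CPM and none, TMM (edgeR) or DESeq2 scaling, library totals leaving out mitochondrial and ribosomal protein genes, the mean of CPM over barcodes, stricter barcodes, leaving out each gene's highest barcode, and thinning to 1000 counts or none. Gene positions and exon overlaps come from GENCODE M21. Versions were edgeR 4.0.16 and DESeq2 1.42.0 under R 4.3.3, and scipy 1.17.1, pandas 2.3.3, numpy 2.4.6 and matplotlib 3.10.9 under Python 3.11.15.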

Additional observations from a re-analysis of the deposited data

How the results depend on the processing

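No paired analysis was possible because each time point had 1 library. Between treated libraries, 66, 64 and 67 of 72 values under an alternative moved a gene by less than its counting error at 12 h against 6 h, 24 h against 12 h and 24 h against 6 h. Signs near 0 were not stable: at 12 h against 6 h Tgfb1 ranged from -0.08 to 0.11, Smad7 from -0.11 to 0.09 and Tgfbr3 from -0.89 to 0.21, and at 24 h against 6 h Skil ranged from -0.0017 to 0.33, Tgfbi from -0.0042 to 0.61 and Tgfbr3 from -1.34 to 0.0045. A 2-fold limit left 1, 0 and 1 of the 5 genes at 20 CPM or more past it in these comparisons, and 9, 1 and 8 pathway genes. A pseudocount of 50 left 0 of the 5 at 24 h against 12 h, 1 at 24 h against 6 h and 2 at 6 h against 0 h, and 8 pathway genes at 24 h against 6 h. Against the library labelled 0 h, a 2-fold limit left 2 genes at 6 h and 1 at 24 h, a floor of 50 CPM left 2 at 6 h, and a pseudocount of 1 gave 5 at 24 h. Tgfbr1 at 6 h against 0 h turned to a log2 ratio of 1.36 in barcodes with 1000 or more counts and to 1.34 in those with 500 or more genes. In barcodes with 500 or more genes Tgfbr2 turned to -0.90, -0.81 and -0.19 at 6, 12 and 24 h against 0 h. Fewer barcodes at 0 h enter these values, and the cause was not tested otherwise. Tgfbr1 at 12 h against 6 h also missed 1.5-fold with DESeq2 size factors (0.54), in barcodes with 1000 or more counts (0.56) and with a pseudocount of 50 (0.28). Skil at 24 h against 12 h missed it with DESeq2 size factors (-0.54), under which the all-gene median at 12 h against 6 h was 0.01. Depth limits Tgfb1, Tgfbr3 and Tgfbi most, and each 6 h value of the 8 genes rests on 67 counts or fewer.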
